A study of Mus musculus with 12 samples.

Results

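Toll-like receptors are innate immune receptors that recognise microbial and endogenous molecules. The 9 receptor genes described here were Tlr1, Tlr2, Tlr3, Tlr4, Tlr6, Tlr7, Tlr8, Tlr9 and Tlr13, taken by name from 55401 genes. They were divided by the place of the protein into 5 endosomal receptors (Tlr3, Tlr7, Tlr8, Tlr9 and Tlr13) and 4 cell-surface receptors (Tlr1, Tlr2, Tlr4 and Tlr6). Their transcripts were compared in leukemia cells that had grown in 3 kinds of host mouse, with 4 libraries per host: C57BL/6 animals of wild type (WT), Rag2-/- animals and NSG animals.

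All 12 libraries came from the same MLL-AF9 leukemia, a mouse model of acute myeloid leukemia (AML) made by transducing bone marrow progenitors with the fusion oncogene MLL-AF9 together with GFP, and passaged in mice more than 10 times before the experiment. The hosts were female, 8 to 12 weeks old and not irradiated, and GFP+ cells were taken from the bone marrow of moribund animals for RNA-seq. Rag2-/- mice (the C57BL/6J-Rag2em3Lutzy/J strain) lack mature T and B cells and keep natural killer (NK) cells, while NSG mice lack T, B and NK cells. These are genotypes of the host and not of the sorted cells, and the leukemia is a single line, so the libraries do not sample different leukemias. The labels call the libraries biological replicates. Whether each came from its own mouse is not given in the sources used here, so p-values measure the spread between these libraries.

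The endosomal receptors sense nucleic acids: Tlr3 binds double-stranded RNA, Tlr7 and Tlr8 single-stranded RNA and its breakdown products, Tlr9 DNA with unmethylated CpG, and Tlr13 a stretch of bacterial ribosomal RNA. They are carried to endosomes by Unc93b1 and cut there by proteases before they signal. The cell-surface receptors sense microbial lipids: Tlr4 with its partner Ly96 binds lipopolysaccharide, and Tlr2 pairs with Tlr1 or Tlr6 to bind lipopeptides. Myeloid cells, including monocytes, neutrophils and their precursors, express many of these receptors, which signal through the adaptors Myd88 and Ticam1 to NF-kB and interferon regulatory factors.

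Levels are given as TPM, a unit of transcript abundance corrected for gene length and library size, so that levels can be set side by side between genes. Tests used limma on log2(TPM + 1) over the 15026 genes whose mean reached 1 TPM, and a gene was called at an adjusted p under 0.05 with a log2 fold change beyond 0.5 in either direction. Of the 9 receptors, 8 were tested. The remaining one, Tlr3, had a mean of 0.339 TPM. The estimated depth per library was 8004454 to 13566729 read pairs in WT, 8675365 to 21405690 in Rag2-/- and 9497542 to 16571859 in NSG libraries, so the hosts overlapped.

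The endosomal receptors Tlr13 and Tlr8 were higher in cells from Rag2-/- mice than in cells from WT mice, and higher than in cells from NSG mice. They were the 2 receptors called of 8 tested in each comparison, against 1.14% of all tested genes called higher for Rag2-/- against WT and 0.193% for Rag2-/- against NSG. No receptor was called lower, as 0.326% and 0.0200% of all tested genes were. Among cell-surface receptors, Tlr2 had an adjusted p under 0.05 against WT but a log2 fold change of 0.49, just inside the limit of 0.5. Between NSG and WT cells no receptor was called.

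The receptors covered a wide range of levels. Over the 12 libraries the mean was 95.0 TPM for Tlr13, 79.0 for Tlr4, 66.7 for Tlr1, 45.2 for Tlr2, 27.6 for Tlr6, 19.7 for Tlr9, 9.70 for Tlr7, 5.75 for Tlr8 and 0.339 for Tlr3. This order held between each pair of neighbours in 12 of 12 libraries, except that Tlr4 was above Tlr1 in 11 of 12. The exception was an NSG library, so the levels of Tlr4 and Tlr1 are not apart beyond the spread in that host. The most abundant and the least abundant receptors were thus both endosomal. The other mouse receptors were at or near the limit of detection, with 0.124 to 1.47 TPM for Tlr5, a flagellin receptor, at most 0.271 TPM for Tlr12, and Tlr11 listed at 0 in 11 of 12 libraries.

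**Figure D1:**
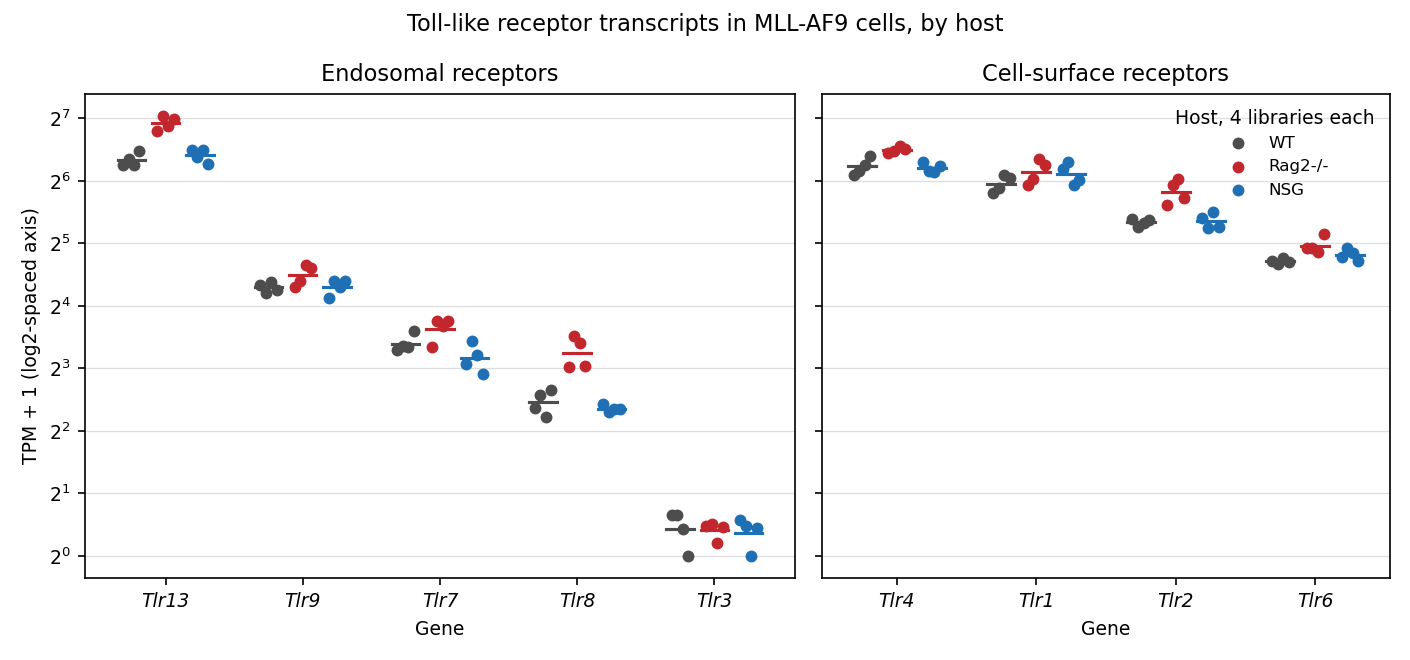
TPM + 1 of the 9 Toll-like receptors (vertical axis, spaced in powers of 2) in each of the 4 libraries per host (points), with the mean of log2(TPM + 1) as a bar; endosomal receptors are on the left and cell-surface receptors on the right. The 4 Rag2-/- points lie above all WT and NSG points for Tlr13, Tlr8, Tlr2 and Tlr4, and the lowest Rag2-/- value of Tlr13 is 110.2 TPM against a highest value of 89.5 TPM in the other hosts.

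Tlr13 (ENSMUSG00000033777) is encoded on the plus strand of chromosome X at chrX:106143204-106160493 in GENCODE M21 (GRCm38, the same assembly as mm10). Tlr8 (ENSMUSG00000040522) is on the minus strand at chrX:167242696-167264329, and Tlr7 (ENSMUSG00000044583) lies 40600 bases further along on the same strand at chrX:167304929-167330558. Since Tlr13 and Tlr8 were the receptors called together, the stretches just before their transcription starts are shown, from the RefSeq promoter table for GRCm38.p6, which held entries for 7 of the 9 receptors. Each is written 5′ to 3′ along the gene and ends at the base before the first annotated transcript base. Capitals mark 2 motifs read on both strands, the core of the sites bound by PU.1, a factor of the myeloid lineage, GAGGAA, and the motif of C/EBP, another such factor, TTNNGNAA. The 179 bases for Tlr13 are chrX:106143025-106143203, plus strand, and the 250 bases for Tlr8 are chrX:167264330-167264579, minus strand.
Tlr13: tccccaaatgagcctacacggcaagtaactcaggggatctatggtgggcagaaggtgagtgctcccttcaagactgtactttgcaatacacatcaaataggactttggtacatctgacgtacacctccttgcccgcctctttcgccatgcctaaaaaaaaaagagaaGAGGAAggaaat
Tlr8: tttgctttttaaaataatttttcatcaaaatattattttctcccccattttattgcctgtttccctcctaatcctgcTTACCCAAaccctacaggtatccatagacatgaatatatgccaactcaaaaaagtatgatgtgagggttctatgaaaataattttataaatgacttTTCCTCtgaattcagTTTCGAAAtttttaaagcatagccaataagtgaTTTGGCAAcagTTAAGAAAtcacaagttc

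The stretch before Tlr13 held 1 PU.1 core and 0 C/EBP motifs, and that before Tlr8 held 1 PU.1 core and 4 C/EBP motifs. Over all 32851 promoters in the table, each 300 bases long, 28.3% held the PU.1 core and 40.7% the C/EBP motif, so both motifs are common. Of the 9 entries for the receptors, 4 held the PU.1 core and 6 the C/EBP motif. A match is a match of letters and was not tested as a binding site.

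Tlr13, the sensor of bacterial ribosomal RNA, stood at 75.0, 80.2, 75.7 and 88.4 TPM in WT replicates 1 to 4, at 110.2, 131, 116 and 126 TPM in Rag2-/- replicates 1 to 4, and at 88.9, 82.6, 89.5 and 75.9 TPM in NSG replicates 1 to 4. All 4 Rag2-/- libraries were above all other libraries, and the WT and NSG values overlapped. The mean rose from 79.8 ± 6.16 TPM in WT (SD, n = 4) to 121 ± 9.41 in Rag2-/- cells (SD, n = 4), a ratio of 1.51. On the log2 scale this was 0.59 (SE 0.08, limma adjusted p = 0.00479). The distance from NSG cells, at 84.2 ± 6.39 TPM (SD, n = 4), was 0.52 log2 units (SE 0.08, limma adjusted p = 0.0250). The call against WT held with each of the 12 libraries left out in turn. The call against NSG lay close to both limits and held with 7 of 12 left out. It was lost without Rag2-/- replicate 2 (adjusted p = 0.111 in limma), Rag2-/- replicate 3 (0.112), NSG replicate 2 (0.0666) and NSG replicate 4 (0.0672), and without Rag2-/- replicate 4, where the log2 fold change was 0.50 and just under the limit. It was also lost in 5 of 9 other settings, namely with no filter on low values, with median-ratio scaling, without a variance trend, with the 8 libraries of the comparison alone and with the replicate block, where the adjusted p in limma was 0.0296 to 0.0731. With median-ratio scaling it was the log2 fold change, at 0.50, that fell just under the limit.

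Tlr8, a sensor of single-stranded RNA and its breakdown products, stood at 4.15, 4.97, 3.67 and 5.31 TPM in WT replicates 1 to 4, at 7.13, 10.5, 9.57 and 7.21 TPM in Rag2-/- replicates 1 to 4, and at 4.36, 3.92, 4.09 and 4.11 TPM in NSG replicates 1 to 4. Every Rag2-/- library was above every WT and NSG library, with replicates 2 and 3 the highest. The ratio of the means was 1.90 against WT and 2.09 against NSG, the widest among the 8 tested receptors in both comparisons. Tlr8 was 0.79 log2 units above WT (SE 0.15, limma adjusted p = 0.0193) and 0.89 above NSG (SE 0.15, limma adjusted p = 0.0429). These levels rest on few reads, an estimated 35 to 156 read pairs per library, against 749 to 3250 for Tlr13. The call against WT was lost without WT replicate 2 (adjusted p = 0.0537 in limma), WT replicate 3 (0.0567), Rag2-/- replicate 2 (0.0659) or Rag2-/- replicate 3 (0.0724). The call against NSG held with 4 of 12 libraries left out, namely WT replicates 2 and 3, Rag2-/- replicate 4 and NSG replicate 3, and with any other library left out the adjusted p was 0.0526 to 0.160. It was also lost in 4 of 9 other settings, with no filter on low values, with median-ratio scaling, with the 8 libraries of the comparison alone and with the replicate block, at an adjusted p of 0.0540 to 0.0877 in limma. The direction was the same in each of these fits.

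Tlr7, the neighbour of Tlr8 on chromosome X and a sensor of single-stranded RNA, stood at 8.77, 9.27, 9.12 and 11.1 TPM in WT replicates 1 to 4, at 9.19, 12.6, 11.8 and 12.5 TPM in Rag2-/- replicates 1 to 4, and at 7.40, 9.89, 8.31 and 6.48 TPM in NSG replicates 1 to 4. Rag2-/- replicate 1 lay among the WT and NSG values, while the other Rag2-/- libraries were above them. The fitted distance was 0.24 log2 units from WT (SE 0.14, limma adjusted p = 0.342) and 0.48 from NSG (SE 0.14, adjusted p = 0.158), and neither passed. The ratio of Tlr8 to Tlr7 within a library was 0.473 ± 0.0547 in WT, 0.750 ± 0.118 in Rag2-/- and 0.528 ± 0.106 in NSG cells (SD, n = 4 each), so Tlr7 remained the more abundant of these neighbours in every host.

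Tlr9, the sensor of CpG DNA, is on the plus strand of chromosome 9 at chr9:106222598-106226883 (ENSMUSG00000045322). It stood at 19.3, 17.6, 19.7 and 18.1 TPM in WT replicates 1 to 4, at 18.7, 20.0, 24.1 and 23.4 TPM in Rag2-/- replicates 1 to 4, and at 16.5, 20.1, 18.6 and 20.0 TPM in NSG replicates 1 to 4. Rag2-/- replicates 3 and 4 were above all other libraries and the remaining Rag2-/- libraries lay within the range of the other hosts. It was 0.19 log2 units from WT (SE 0.09, limma adjusted p = 0.272) and 0.18 from NSG (SE 0.09, adjusted p = 0.466). Tlr3, the sensor of double-stranded RNA (chr8:45395665-45411080, minus strand, ENSMUSG00000031639), overlaps Gm45542, a gene on the opposite strand listed at 0 in every library. It was at 0.580, 0.571, 0.344 and 0 TPM in WT replicates 1 to 4, at 0.385, 0.422, 0.157 and 0.383 TPM in Rag2-/- replicates, and at 0.484, 0.386, 0 and 0.356 TPM in NSG replicates. With an estimated 0 to 12 read pairs per library it was barely detected in any host and was not tested.

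Among the cell-surface receptors, Tlr2, the shared chain of the lipopeptide receptors (chr3:83836272-83841767, minus strand, ENSMUSG00000027995), had the widest difference. It stood at 40.9, 37.4, 39.2 and 40.4 TPM in WT replicates 1 to 4, at 48.0, 60.2, 64.3 and 51.7 TPM in Rag2-/- replicates 1 to 4, and at 41.4, 36.9, 44.4 and 37.5 TPM in NSG replicates 1 to 4. All Rag2-/- libraries were above all others, with replicates 2 and 3 the highest, as for Tlr8. In limma the distance was 0.49 log2 units from WT (SE 0.09, adjusted p = 0.0205) and 0.47 from NSG (SE 0.09, adjusted p = 0.0603). Tlr2 was therefore not called at the fold limit of 0.5. It was called against WT without WT replicate 1, Rag2-/- replicate 1 or Rag2-/- replicate 4, with log2 fold changes of 0.50 to 0.56, and against NSG without Rag2-/- replicate 4 or NSG replicate 3, with 0.50 and 0.52.

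Tlr4, the lipopolysaccharide receptor (chr4:66827584-66930284, plus strand, ENSMUSG00000039005), stood at 67.7, 70.6, 75.4 and 83.8 TPM in WT replicates 1 to 4, at 85.8, 87.9, 93.3 and 90.4 TPM in Rag2-/- replicates 1 to 4, and at 78.0, 70.4, 69.6 and 74.9 TPM in NSG replicates 1 to 4. The Rag2-/- values were above all others, by a narrow margin over WT replicate 4. Tlr4 was 0.27 log2 units from WT (SE 0.07, limma adjusted p = 0.0545) and 0.28 from NSG (SE 0.07, adjusted p = 0.102), so that neither passed.

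Tlr1 and Tlr6, the partner chains of Tlr2, are neighbours on the minus strand of chromosome 5, at chr5:64924679-64933563 (ENSMUSG00000044827) and chr5:64952031-64960097 (ENSMUSG00000051498), 18468 bases apart. Tlr1 stood at 55.3, 58.1, 67.0 and 65.1 TPM in WT replicates 1 to 4, at 60.4, 64.2, 80.5 and 75.7 TPM in Rag2-/- replicates 1 to 4, and at 72.0, 78.4, 60.0 and 63.5 TPM in NSG replicates 1 to 4. The 3 hosts overlapped. Tlr6 stood at 25.3, 24.5, 26.1 and 24.9 TPM in WT replicates, at 29.5, 29.3, 28.0 and 34.6 TPM in Rag2-/- replicates, and at 26.6, 29.4, 27.9 and 25.4 TPM in NSG replicates. The Rag2-/- values of Tlr6 were above those of WT and overlapped those of NSG. Tlr1 was 0.19 log2 units from WT (SE 0.11, limma adjusted p = 0.353) and 0.03 from NSG (SE 0.11, adjusted p = 0.936). Tlr6 was 0.26 log2 units from WT (SE 0.07, limma adjusted p = 0.0802) and 0.14 from NSG (SE 0.07, adjusted p = 0.455).

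**Figure D2:**
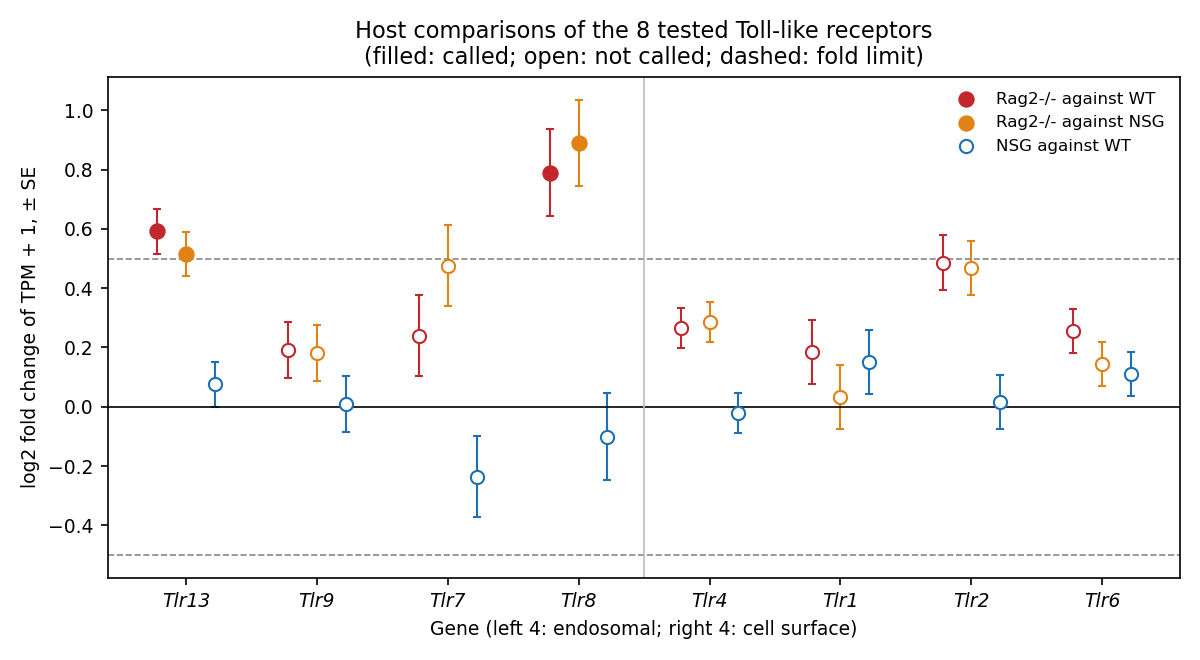
Log2 fold change of TPM + 1 with its standard error (vertical axis) for the 8 tested receptors (horizontal axis) in the 3 host comparisons, from limma over 12 libraries; filled points are called and dashed lines mark the fold limit of 0.5. Filled points appear for Tlr13 and Tlr8 in both comparisons of Rag2-/- cells, and all points of NSG against WT lie between -0.24 and 0.15.

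Across the family, all 8 tested receptors had a log2 fold change above 0 against WT, as did 54.5% of all tested genes, with a median of 0.26 beside 0.02 over all genes. Against NSG it was again 8 of 8 beside 53.4% of all genes, with a median of 0.38 beside 0.01. Both comparisons use the same 4 Rag2-/- libraries, so they are not independent of each other. The sign of Tlr1 against NSG turned with a library left out, to -0.03 without Rag2-/- replicate 3, -0.01 without Rag2-/- replicate 4 and -0.03 without NSG replicate 3. The libraries did not overlap, with Rag2-/- the higher, for 5 of 8 receptors against WT (Tlr13, Tlr8, Tlr2, Tlr4 and Tlr6), where 10.2% of all genes did so, and for 4 of 8 against NSG (the same receptors without Tlr6), where 4.34% did. For NSG against WT, 5 of 8 were above 0 (51.5% of all genes) with a median of 0.01, every receptor overlapped (4.59% of all genes did not), and the adjusted p was 0.617 to 0.983 in limma. That comparison called 0 of 15026 genes (0%) in limma, although 1377 genes (9.16%) and 0 receptors had an unadjusted p under 0.05.

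Endosomal and cell-surface receptors were set side by side by their place in the cell. Of the 4 tested endosomal receptors 2 were called in each comparison of Rag2-/- cells, and of the 4 cell-surface receptors 0 were called. Over all tested genes 1.14% were called higher against WT and 0.193% against NSG. Tlr2 missed only the fold limit against WT, with a log2 fold change of 0.49 and an adjusted p of 0.0205 in limma. By non-overlap, 2 endosomal and 3 cell-surface receptors were higher in Rag2-/- than in WT libraries, as were 10.2% of all genes. Against NSG the counts were 2 and 2, beside 4.34% of all genes. The median log2 fold change was 0.42 for endosomal and 0.26 for cell-surface receptors against WT, and 0.50 and 0.21 against NSG. The endosomal group was not uniform, since Tlr9 and, against WT, Tlr7 had smaller log2 fold changes than Tlr2.

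The mean log2(TPM + 1) of the 4 tested endosomal receptors minus that of the 4 cell-surface receptors was -1.44 ± 0.086 in WT, -1.28 ± 0.088 in Rag2-/- and -1.57 ± 0.058 in NSG cells (SD, n = 4 each). The Rag2-/- libraries ranged from -1.36 to -1.16, next to WT at -1.56 to -1.37 and clear of NSG at -1.64 to -1.52. The Rag2-/- libraries lay above all others, and the WT and NSG libraries overlapped each other. The gap between the nearest WT and Rag2-/- libraries was smaller than the spread within either host, and with quantile normalization those hosts overlapped (WT up to -1.35, Rag2-/- from -1.36). As a share of the summed TPM of all tested receptors, the endosomal ones made up 36.0% ± 1.197 in WT, 39.8% ± 1.71 in Rag2-/- and 35.5% ± 1.27 in NSG cells (SD, n = 4 each). This difference between groups of receptors was not tested, since it is a score over members.

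In summed TPM the 8 receptors came to 313 ± 18.0 in WT, 408 ± 26.8 in Rag2-/- and 324 ± 12.3 in NSG cells (SD, n = 4 each). The endosomal sum was 113, 162 and 115 TPM in the same order, and the cell-surface sum 200.4, 246 and 209 TPM. Tlr13 made up 70.9%, 74.4% and 73.1% of the endosomal sum. Without Tlr13 the endosomal sum was 32.7 ± 1.17 TPM in WT, 41.7 ± 4.56 in Rag2-/- and 31.0 ± 2.29 in NSG cells (SD, n = 4 each).

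Tlr7, Tlr8 and Tlr13 are all on chromosome X. Of 464 tested genes on that chromosome 10 were called higher for Rag2-/- against WT, and of 14562 tested genes elsewhere 162 were. Against NSG the counts were 3 of 464 and 26 of 14562. Tlr13 and Tlr8 are themselves among the 10 and among the 3, and the called shares on and off chromosome X were not tested against each other. The median log2 fold change of X-linked genes was 0.03 against WT and 0.01 against NSG, close to that of other chromosomes (0.02 and 0.01).

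The other genes of the pathway were taken as 8 lists with 103 genes, of which 85 were tested. Against WT 1 of the 85 was called higher and 0 lower, beside 1.14% and 0.326% of all tested genes. Against NSG 1 was called higher and 0 lower, beside 0.193% and 0.0200%. The median log2 fold change of the 85 was 0.10 against WT and 0.09 against NSG, lower than that of the receptors themselves. Of the 85, 59 were above 0 against WT and 65 against NSG, beside 54.5% and 53.4% of all tested genes. The Rag2-/- libraries lay above all WT libraries for 20 of the 85 genes, where 10.2% of all tested genes did so, and below them for 6. They lay above all NSG libraries for 10 of the 85, where 4.34% of all genes did so, and below them for 0. The share of all genes with Rag2-/- libraries below is not given here, so the counts below are not read as a result. For NSG against WT 0 of 85 were called.

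The gene called against WT was Irf5, the interferon regulatory factor that acts downstream of Myd88. It stood at 20.6 ± 1.23 TPM in WT, 32.9 ± 6.50 in Rag2-/- and 22.6 ± 3.47 in NSG cells (SD, n = 4 each), with Rag2-/- libraries at 27.1 to 42.1 TPM and all other libraries at 17.9 to 26.2 TPM. Irf5 was 0.63 log2 units above WT (SE 0.13, limma adjusted p = 0.0309) and its distance from NSG was 0.52 (SE 0.13, adjusted p = 0.130). Among the 12 tested transcription factors it was the only one called. The gene called against NSG was Axl, a receptor tyrosine kinase that dampens Toll-like receptor responses, in the list of co-receptors and ligand delivery. Axl was scarce, at 1.24 ± 0.411 TPM in WT, 3.08 ± 1.31 in Rag2-/- and 0.535 ± 0.138 in NSG cells (SD, n = 4 each), with a log2 fold change of 1.37 (SE 0.24, adjusted p = 0.0462 in limma) against NSG and 0.84 (SE 0.24, adjusted p = 0.0732) against WT. Its mean over all libraries, 1.62 TPM, passed the filter of 1 TPM only through the Rag2-/- libraries. The Axl call is therefore not read as a result about the pathway.

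In the route that endosomal receptors take to their compartment, 0 of 14 tested chaperone and trafficking genes were called in any comparison. Unc93b1, which carries these receptors out of the endoplasmic reticulum, was the most abundant gene of that list, at 500.4 ± 15.2 TPM in WT, 493 ± 41.7 in Rag2-/- and 485 ± 43.0 in NSG cells (SD, n = 4 each), and its 3 hosts overlapped. Hsp90b1, the chaperone known as gp96, stood at 400.2 ± 12.5, 518 ± 27.1 and 456 ± 140.3 TPM in the same order, with a log2 fold change of 0.37 (SE 0.17, adjusted p = 0.238 in limma) against WT. Cnpy3, a chaperone of these receptors that is named here after its values were seen, was at 142 ± 6.03 TPM in WT, 112 ± 4.53 in Rag2-/- and 121 ± 10.7 in NSG cells (SD, n = 4 each). All its Rag2-/- libraries were below all WT libraries, with a log2 fold change of -0.34 (SE 0.06, adjusted p = 0.0193 in limma), within the fold limit. Of the 4 tested endosomal proteases 0 were called, while all 4 were above 0 against both hosts with medians of 0.41 and 0.32. Ctss (cathepsin S) stood at 60.2 TPM in WT, 83.8 in Rag2-/- and 64.2 in NSG cells, and its log2 fold change of 0.47 against WT had an adjusted p of 0.0230 in limma, under the fold limit. Ctsb (cathepsin B) stood at 173, 199 and 167 TPM, with an adjusted p of 0.0859 in limma against WT.

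Of the signalling genes, 0 of 6 tested adaptors were called. Myd88, the adaptor shared by all of these receptors but Tlr3, stood at 139 ± 5.94 TPM in WT, 149 ± 4.41 in Rag2-/- and 129.99 ± 2.66 in NSG cells (SD, n = 4 each), a distance of 0.11 log2 units from WT (SE 0.04, limma adjusted p = 0.187) and 0.20 from NSG (SE 0.04, adjusted p = 0.0835). Pik3ap1, which links the receptors to phosphoinositide 3-kinase, had a log2 fold change of 0.19 against WT (adjusted p = 0.211 in limma). Of 19 tested kinases and ubiquitin ligases 0 were called, with medians of 0.11 against WT and 0.09 against NSG, and the most abundant, Btk and Irak1, had log2 fold changes of 0.03 and 0.10 against WT.

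Of 10 tested negative regulators 0 were called, with a median of -0.07 against WT and 0.08 against NSG. Nfkbia, the inhibitor of NF-kB that is itself an NF-kB target, stood at 207 ± 19.4 TPM in WT and 261 ± 33.2 in Rag2-/- cells (SD, n = 4 each), with a log2 fold change of 0.33 (SE 0.09, adjusted p = 0.0716 in limma), and Tnip1, which restrains NF-kB signalling, had one of -0.11 (adjusted p = 0.344). Of 22 cytokine and chemokine targets 10 were tested and 0 called, with medians of 0.08 against WT and 0.14 against NSG. Ccl3, the most abundant chemokine of the list, stood at 402 TPM in WT, 485 in Rag2-/- and 413 in NSG cells, with a log2 fold change of 0.27 (SE 0.11, adjusted p = 0.193 in limma) against WT. Il12a stood at 103, 107 and 106 TPM. Ifnb1, the interferon induced through Tlr3 and Tlr4, was listed at 0 in every library.

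**Figure D3:**
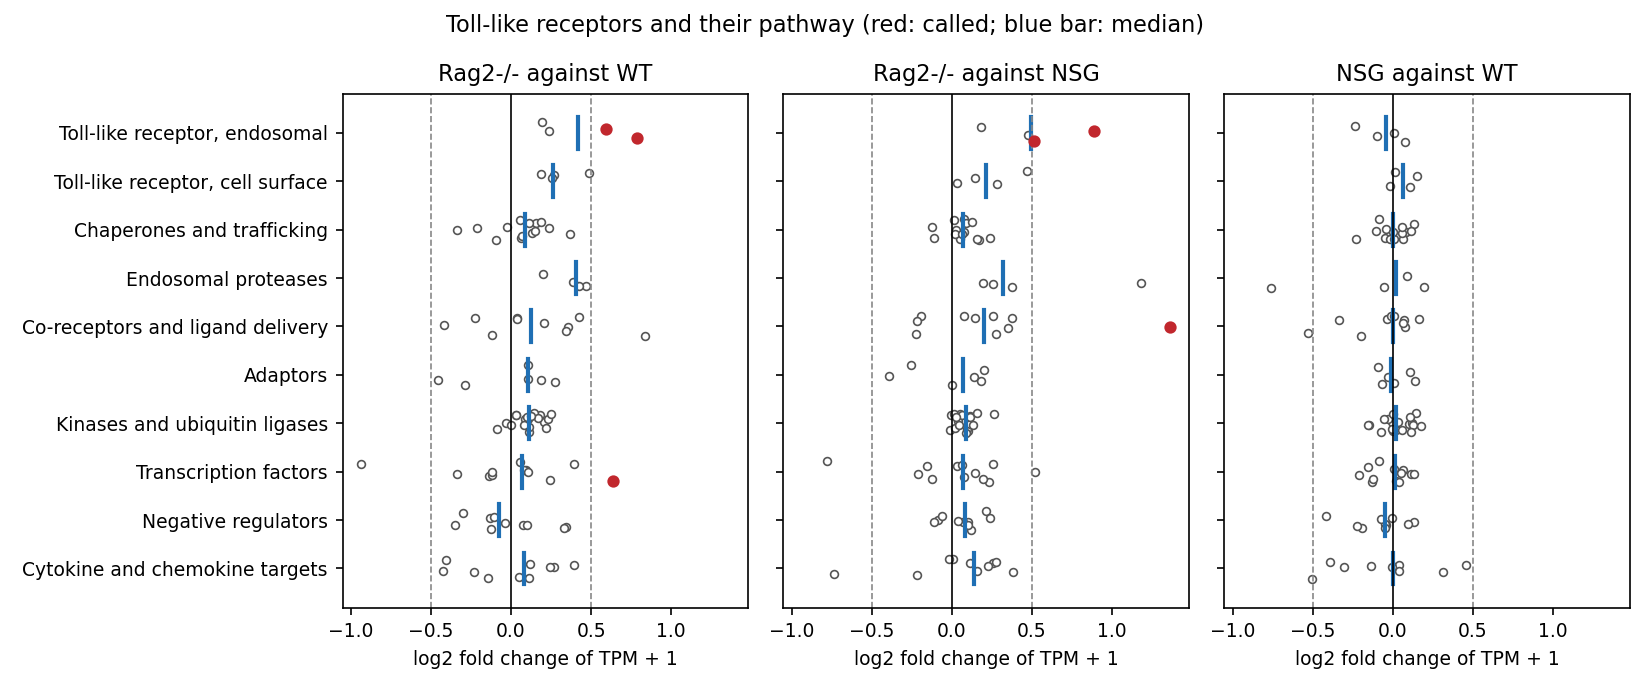
Log2 fold change of TPM + 1 (horizontal axis) of each tested gene in the 2 receptor groups and the 8 pathway lists (rows) for the 3 host comparisons (panels), with called genes in red, the median of each row as a blue bar and the fold limit of 0.5 as dashed lines. The endosomal receptors have the highest median against WT, at 0.42, followed by the endosomal proteases at 0.41, and no gene is red in the panel of NSG against WT.

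The libraries are bulk samples of sorted cells, in which fewer cells of a type and less RNA per cell cannot be told apart. Genes of the leukemia were abundant in all hosts, with a summed level of 12 such genes (led by Elane, Cd33 and Mpo) of 11976 to 13476 TPM in WT, 11055 to 13400 in Rag2-/- and 11025 to 15954 in NSG libraries. Elane, with a mean of 10761 TPM, made up most of that sum. The list did not move one way. Against WT 1 of its 11 tested genes was called higher and 1 lower, beside 1.14% and 0.326% of all tested genes. Mpo, the myeloperoxidase gene, fell from 553 TPM in WT to 145 in Rag2-/- cells (log2 fold change -2.13, adjusted p = 0.0189 in limma), Cd33 rose from 531 to 801 TPM (0.59, adjusted p = 0.0237), and Mef2c was near the limit of detection in all hosts, with a mean of 0.227 TPM. Neutrophil markers other than Ly6g were higher in every Rag2-/- library than in the WT and NSG libraries. Ly6g overlapped between hosts, with log2 fold changes of 0.69 against WT and 0.92 against NSG (limma adjusted p = 0.327 and 0.331). Of 12 neutrophil markers 11 were called higher against WT and 8 against NSG, beside 1.14% and 0.193% of all tested genes. Their medians were 3.02 and 2.52 on the log2 scale, and none of the 12 was listed at 0 in all libraries. Their summed level, led by Lcn2, S100a9 and Cd177, was 295 to 480 TPM in WT, 832 to 2345 in Rag2-/- and 429 to 473 in NSG libraries. Neutrophils express Toll-like receptors, and the part of these transcripts in the higher Tlr13 and Tlr8 was not tested.

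Within the Rag2-/- host the receptors can be set beside the neutrophil markers by value only. The marker sum was 2345, 2227, 2328 and 832 TPM in Rag2-/- replicates 1 to 4, so that only replicate 4 stood apart. Tlr13 in replicate 4, the library with the lowest marker sum, was 126 TPM, the next highest of the host, and in replicate 1, with the highest sum, it was 110.2 TPM, the lowest. Tlr8 was 7.21 TPM in replicate 4 and 7.13 TPM in replicate 1, beside 10.5 and 9.57 TPM in replicates 2 and 3. Without replicate 4 the log2 fold change was 0.57 for Tlr13 and 0.86 for Tlr8 against WT, and both were called. Against NSG, Tlr8 was called without replicate 4 and Tlr13 was not. The part of neutrophil transcripts in these levels was not tested.

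**Figure D4:**
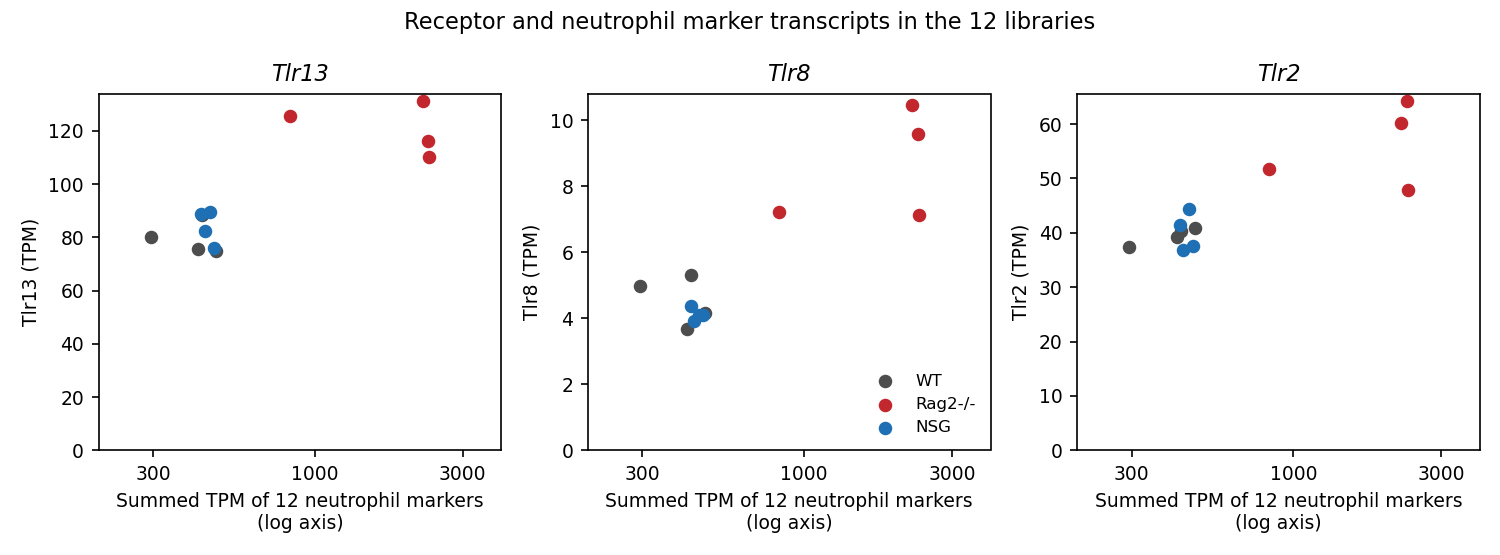
TPM of Tlr13, Tlr8 and Tlr2 (vertical axes, from 0) against the summed TPM of 12 neutrophil markers (horizontal axes, log scale) in the 12 libraries, coloured by host. Rag2-/- replicate 4, with a marker sum of 832 TPM, stands at 126 TPM for Tlr13, among the other Rag2-/- libraries, whose marker sums are 2227 to 2345 TPM. For Tlr8 it stands at 7.21 TPM and for Tlr2 at 51.7 TPM, each the next lowest of the Rag2-/- libraries.

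For the other cell types, summed levels were led by a few abundant genes, so scarcer markers that stood apart are named too, after their values were seen. The summed macrophage markers (12 genes, led by Adgre1, Vcam1 and Cd163) were 103 to 111 TPM in WT, 112 to 130 in Rag2-/- and 66.0 to 122 in NSG libraries. Of 8 tested, 1 (C1qc) was called higher against WT, beside 1.14% of all tested genes. The Rag2-/- sums lay above all WT sums and overlapped those of NSG. Against WT 6 of the 8 tested macrophage markers had a log2 fold change above 0. Of the 3 most abundant, Adgre1 was at -0.07, Cd163 at -0.04 and Vcam1 at 0.16. Against NSG all 8 tested macrophage markers were above 0, with a median log2 fold change of 0.75. The Rag2-/- libraries lay above all NSG libraries for 4 of the 8, where 4.34% of all tested genes did so. C1qa, C1qb and C1qc, which encode the chains of complement C1q, had log2 fold changes of 1.53, 1.31 and 1.28 against WT and of 1.72, 1.75 and 1.30 against NSG, with limma adjusted p-values of 0.0894, 0.0506 and 0.0250 and of 0.140, 0.0518 and 0.0603. Their means in Rag2-/- cells were 6.88, 7.93 and 4.07 TPM, and all Rag2-/- libraries were above all others. Macrophages express Toll-like receptors too. The monocyte sum (8 genes, led by F13a1, Ly6c2 and Ccr2) was 1783 to 1877, 1322 to 1639 and 1248 to 1725 TPM in WT, Rag2-/- and NSG libraries. Of 7 tested, 1 (Ly6c2) was called lower against WT, beside 0.326% of all tested genes. The list did not move one way, since 2 of the 7 were above 0 against WT and 5 against NSG. The 2 were Treml4, at a scarce 0.501 TPM in WT, 2.00 in Rag2-/- and 0.856 in NSG cells, and Nr4a1. Their log2 fold changes against WT were 1.00 and 0.54, with limma adjusted p-values of 0.0545 and 0.127. Treml4 passed the filter of 1 TPM only through the Rag2-/- libraries, so its part in these counts is not read as a result. The dendritic cell sum (7 genes, led by Flt3) was 175 to 209, 147 to 190 and 154 to 200.5 TPM. The plasmacytoid dendritic cell sum (8 genes, led by Tcf4), of a cell type rich in Tlr7 and Tlr9, was 100.02 to 113, 112 to 126 and 97.3 to 116 TPM. The B cell sum (9 genes, led by Ighm) was 182 to 233, 141 to 212 and 127 to 224 TPM, with Ms4a1 at 0 in all libraries. Of 5 tested, 1 (Igkc) was called lower against WT, beside 0.326% of all tested genes. Igkc was at 9.38 TPM in WT, 0.0738 in Rag2-/- and 0.169 in NSG cells. It passed the filter of 1 TPM only through the WT libraries, so its call is not read as a result. T and NK cell markers (12 genes, led by Nkg7) summed to 5.57 to 8.20, 4.27 to 11.1 and 2.40 to 8.56 TPM, with Cd3e at 0 in all. Nkg7 was at 5.93 TPM in WT, 3.49 in Rag2-/- and 5.19 in NSG cells. Klrb1c, Klrd1, Gzmb and Prf1 had their highest means in Rag2-/- cells, at 0.927, 0.339, 0.169 and 0.124 TPM. Nkg7, Cd3d and Cd8a had their lowest means there. Ncr1, a receptor of NK cells, was at 0.108 to 0.531 TPM in Rag2-/- libraries and listed at 0 in every WT and NSG library. Gzma was at 0.624 to 2.39 TPM in Rag2-/- libraries, listed at 0 in every WT library and at up to 1.67 TPM in NSG libraries. Erythroid markers (8 genes) summed to 3.73 to 5.15, 5.78 to 11.2 and 3.38 to 12.6 TPM. The part of these cell types in the receptor levels was not tested.

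The genes whose levels over the 12 libraries were most like those of the receptors were named by the Pearson correlation of log2(TPM + 1), as a description, since the libraries share hosts and neutrophil marker levels. For Tlr8 they were Capn2 (r = 0.958), Acadsb (0.955), Retnlg (0.936), Arhgef11 (0.925) and Tlr13 (0.921), of which Retnlg is a neutrophil marker. For Tlr13 they were Msn (0.968), Sike1 (0.942), Fcgr3 (0.940), Panx1 (0.939) and Acadsb (0.928), so that Acadsb, a mitochondrial acyl-CoA dehydrogenase, was among the nearest genes of both. Sike1 encodes a suppressor of the kinases downstream of Tlr3, and Fcgr3 an activating receptor for the Fc part of antibodies. The nearest gene was Fcgr2b for Tlr1 (0.945), Pag1 for Tlr2 (0.952), Myo5a for Tlr4 (0.948), Vmn2r96 for Tlr6 (0.929), Aph1b for Tlr7 (0.911) and 2900005J15Rik for Tlr9 (0.897). Among the 8 tested receptors themselves, Tlr8 and Tlr13 had the highest correlation, followed by Tlr2 with Tlr8 (0.918) and Tlr2 with Tlr13 (0.900), while Tlr1 with Tlr8 had the lowest (0.262).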

How the data were processed

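Transcripts of GFP+ MLL-AF9 cells from 3 hosts were measured by poly-A RNA-seq. The authors aligned paired-end reads to mm10 with HISAT2, counted reads per gene and deposited TPM, 1 column per library, each summing to 1000000. The counting tool and annotation are not given in the sources used here. GENCODE M21 gave symbols and exon lengths for 55141 of 55401 gene IDs. TPM multiplied by exon length came in steps, and 98.7% to 99.0% of genes under 10 steps were multiples of 0.5 of the commonest low value (tolerance 0.03 of a step), which was read as a read pair. Depths and read numbers are therefore estimates, and intervals for counting error are not given.

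From the deposited TPM, log2(TPM + 1) was fitted for genes whose mean reached 1 TPM with limma 3.58.1 (lmFit, contrasts.fit, eBayes with a trend; R 4.3.3) over all 12 libraries with no covariate, with Benjamini-Hochberg adjustment over 15026 genes. The fold change understates the change of low genes. The fit was tested on simulated data with changes larger than those of the receptors, so changes near the fold limit were not covered. Non-overlap means that the lowest library of one host was above the highest of the other. The receptors, lists and markers were chosen with earlier results of these data known. Pathway genes are named where called, and otherwise the 2 most abundant tested genes of a list. Alternatives were another pseudocount, filter, scaling, variance model and sample set, a replicate block, no fold limit, and each library left out. Promoters were from RefSeq (GRCm38.p6), cut before the first transcript base.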

Additional observations from a re-analysis of the deposited data

Results flagged for a closer look

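Tlr3 in the Rag2-/- libraries had 1 value far from the others: replicate 3 was at 0.157 TPM and the others at 0.383 to 0.422 TPM, so the gap took 0.854 of the range, above Dixon's critical value for 4 samples. It was 1 of 33 groups of libraries looked at, where chance gives 1.65, and the values rest on an estimated 0 to 12 read pairs.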

How the results depend on the processing

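Over 9 alternative settings and 12 fits with a library left out, the number of receptors called for NSG against WT was 0 throughout. For Rag2-/- against WT it was 2 to 3 over the settings and 1 to 3 with a library left out. For Rag2-/- against NSG it was 0 with no filter on low values, with median-ratio scaling, with the 8 libraries of the comparison alone and with the replicate block, 1 without a variance trend, and 0 to 3 with a library left out. Over all genes, those called higher ranged from 91 to 309 over the settings and 41 to 246 with a library left out against WT, and from 4 to 35 and 4 to 76 against NSG. Over the fold changes of single receptors, 461 values kept their direction and side of the limits, 26 lost a call, 6 gained one and 11 changed sign. The sign changes came with a library left out and from values near 0, with ranges of -0.035 to 0.10 for Tlr1 against NSG, and for NSG against WT of -0.032 to 0.054 for Tlr2, -0.063 to 0.039 for Tlr4 and -0.021 to 0.068 for Tlr9. The replicate numbers did not pair the libraries, since the deviations of same-numbered libraries from their host means correlated at -0.091 to 0.032 over 12 pairs. With the replicate block, 2 receptors were called against WT and 0 against NSG. Depth limits Tlr3 most. The causes of these changes were not tested.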
